A study of Mus with 2 samples.

Results

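The 8 genes described here encode the constant parts of the T cell receptor chains (Trac, Trbc1, Trbc2 and Trdc) and the CD3 and zeta signalling subunits that travel with them (Cd3d, Cd3e, Cd3g and Cd247). They were chosen by name out of 32285 genes counted in the spatial data, after earlier results of these data had drawn attention to Trbc2, so the values that chose them are descriptions and none was tested. The data were 2 Visium sections of CT26 tumors, a colon carcinoma line grown under the skin of female BALB/c mice, the strain the line came from, aged 6 to 8 weeks. The rIL7 mouse had received 10 µg of recombinant mouse IL-7 by intraperitoneal injection on days 11 and 13 after transplantation, the control mouse PBS, and the tumors were taken on day 15. Each group had 1 section of a transplanted tumor, so every difference below lies between 2 sections with no replicate check and no p-value.

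The antigen receptor of most T cells pairs an alpha chain with a beta chain, and each beta chain uses either the constant region encoded by Trbc1 or the near-identical one encoded by Trbc2. A smaller lineage pairs a gamma chain with a delta chain, whose constant region is encoded by Trdc. Neither pair signals alone: CD3 gamma, delta and epsilon and the zeta chain (Cd247) carry the motifs that the kinase Lck phosphorylates and Zap70 binds, and NK cells also use zeta without a T cell receptor.

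The genes lie in 4 places of the mouse genome (GRCm38, RefSeq annotation). Trbc1 (chr6:41538219-41539665) and Trbc2 (chr6:41546730-41548181) are neighbours separated by 7065 bases, within the beta chain locus. Trdc (chr14:54142851-54146108) and Trac (chr14:54220521-54224198) share a locus on chromosome 14 that spans 81348 bases. Cd3g (chr9:44969572-44980431), Cd3d (chr9:44981769-44987052) and Cd3e (chr9:44998735-45009663) form a cluster of 40092 bases, and Cd247 stands alone (chr1:165779952-165871153).

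The unit throughout is the unique molecular identifier (UMI), a tag that counts each captured RNA molecule once, and a level is given per 1000000 UMIs of the section or of the spots named (CPM). A spot is a small area holding several cells, so fewer T cells and less receptor RNA per T cell cannot be told apart. After filtering, the control section held 2219 spots with 22951678 UMIs and a median of 9623 per spot, and the rIL7 section 1950 spots with 25729233 UMIs and a median of 12921.5. Ranges in parentheses are 95% intervals that cover counting error only, and the range over the 4 quadrants of a section shows the spread within it. The list of T cell markers was present in both sections (10 of 10 genes with at least 20 UMIs over both), Trac and the CD3 genes among them.

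Among the receptor chains Trac, Trbc1 and Trdc were several-fold higher in the rIL7 section, and Trbc2 stood apart. Trac was counted 169 times in the control and 721 times in the rIL7 section, that is 7.36 and 28.0 CPM, a ratio of 3.81 (3.21 to 4.53). Its quadrants lay between 5.25 and 9.95 CPM in the control and between 20.5 and 35.7 CPM in rIL7, with no overlap. Trbc1 behaved alike, with 452 and 1729 UMIs, 19.7 and 67.2 CPM, and a ratio of 3.41 (3.07 to 3.79). Its quadrants, 16.8 to 28.0 and 45.5 to 83.9 CPM, did not overlap either.

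Trbc2, the other beta chain constant gene, had by far the most UMIs and the smallest ratio of the 8. It was counted 2193 times in the control section and 2870 times in the rIL7 section, 95.5 and 112 CPM, a ratio of 1.17 (0.14 to 0.30 on the log2 scale). Its quadrants overlapped, at 83.7, 89.4, 109 and 111 CPM in the control and 105, 109, 115 and 118 CPM in rIL7. The log2 interval lies above 0, while the difference is smaller than the spread among the control quadrants.

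Trdc was the rarest receptor chain, with 54 and 160 UMIs, 2.35 and 6.22 CPM, a ratio of 2.64 (1.93 to 3.67). All 4 signalling subunits were higher in rIL7 by similar factors. Cd3g had 181 and 614 UMIs (ratio 3.03, 2.56 to 3.59) and Cd3d 91 and 337 (3.30, 2.61 to 4.21). Cd3e had 78 and 329 UMIs (3.76, 2.93 to 4.88) and Cd247 44 and 187 (3.79, 2.72 to 5.39). The intervals of these ratios overlap one another and those of Trac and Trbc1, and that of Trbc2 lies below all 7.

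**Figure D1:**
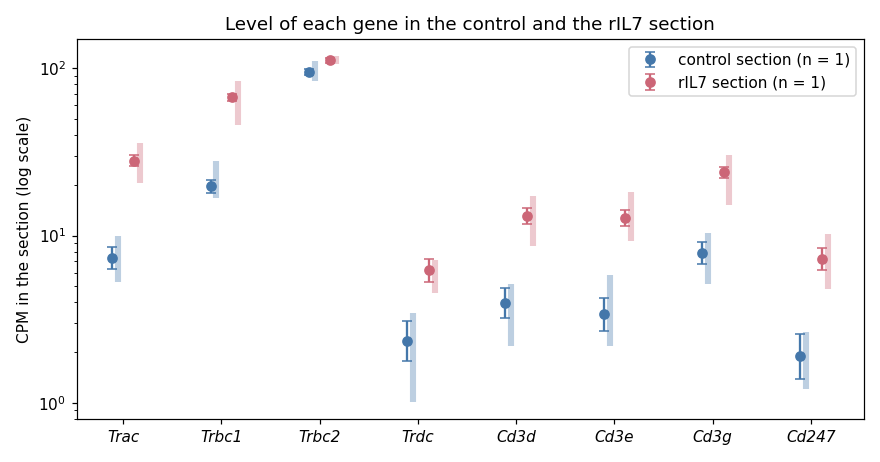
Level of each gene in CPM on a log axis, control in blue and rIL7 in red, 1 section each; bars are 95% counting intervals and the shaded bands span the 4 quadrants of the section. For 7 genes the bands of the 2 sections are apart, and for Trbc2 they overlap (83.7 to 111 CPM against 105 to 118 CPM).

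Counted over the set, 7 of 8 genes were at least 2-fold higher in rIL7, against 4.05% of the 14313 genes with at least 20 UMIs over both sections. The same 7 had quadrants that did not overlap and were higher in rIL7, against 9.74% of those genes. The median log2 ratio of the 8 was 1.75, beside -0.0022 over all genes. Since this contrast helped to choose the genes, nothing further is read from these counts.

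As a difference in level, Trbc2 was close to Trac and below Trbc1. Its level in the rIL7 section exceeded that in the control by 16.0 CPM (10.3 to 21.7), beside 20.7 (18.3 to 23.0) for Trac and 47.5 (43.9 to 51.2) for Trbc1. The control level also set Trbc2 apart, since it made up 67.2% (65.6 to 68.8) of the UMIs of all 8 genes in the control and 41.3% (40.2 to 42.5) in rIL7. Of the 2 beta chain genes alone it made up 82.9% and 62.4%. The 3 CD3 genes kept their proportions, with Cd3g at 51.7% of their 350 control UMIs and 48.0% of their 1280 rIL7 UMIs, Cd3d at 26.0% and 26.3%, and Cd3e at 22.3% and 25.7%, all with overlapping intervals. These are shares of captured molecules, and no level per length was formed.

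Distance from the tumor outline was taken from spot positions alone, as steps on the hexagonal grid from the outer outline of the main piece, with an edge of 2 steps. The edge held 401 control and 330 rIL7 spots, the interior 1806 and 1599. Median depth was 10901 UMIs per spot at the edge and 9482 inside in the control, and 11165.5 and 13162 in rIL7. In the control section none of the 8 genes reached a 2-fold edge-to-interior ratio, a ratio that 1.03% of 13168 genes reached. Trac had 9.17 CPM in edge spots and 6.96 CPM inside, a ratio of 1.32 (0.903 to 1.89), and Trbc2 at 101 and 94.2 CPM, a ratio of 1.08 (0.967 to 1.19). Across the 8 control genes the ratios ran from 0.993 for Cd3g to 1.39 for Cd3d, and each single-gene interval included 1. The sum of the 7 genes other than Trbc2 had a control edge ratio of 1.20 (1.04 to 1.39), whose interval lies above 1.

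In the rIL7 section 5 of the 8 genes were at least 2-fold higher at the edge, against 6.83% of 13324 genes. Trac led with 76.7 CPM at the edge and 18.9 CPM inside, a ratio of 4.07 (3.49 to 4.73). The CD3 genes and zeta followed, with ratios of 3.76 for Cd3d, 3.58 for Cd3g, 3.54 for Cd247 and 3.07 for Cd3e. Both beta chain genes were below 2-fold: Trbc1 had 113 and 58.8 CPM, a ratio of 1.92 (1.72 to 2.14), and Trbc2 170 and 101 CPM, a ratio of 1.69 (1.54 to 1.84). Trdc showed no edge at this depth, with 6.37 and 6.19 CPM and a ratio of 1.03 (0.643 to 1.58).

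**Figure D2:**
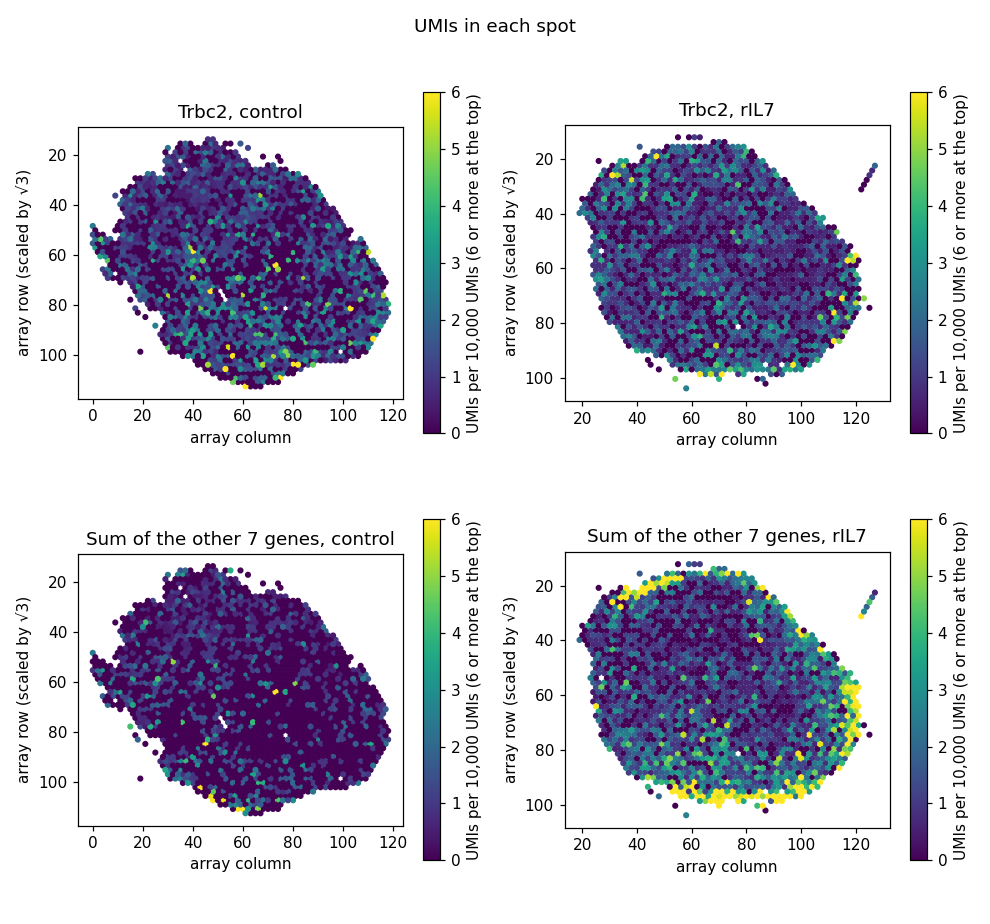
UMIs of the genes in each spot relative to all UMIs of that spot, drawn at its array position, for Trbc2 (top) and the sum of the other 7 genes (bottom) in the control (left) and rIL7 (right) section. The sum of the other 7 forms a bright rim in rIL7 (339 CPM at the edge, 125 CPM inside), while Trbc2 fills both sections with a fainter rim in rIL7.

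Step by step, Trac in rIL7 went from 90.4 CPM in the outermost step to 64.9, 42.5 and 34.1 CPM in the next steps and to 11.8 CPM at 12 steps or more. Trbc1 went from 121 to 44.8 CPM over the same distance. Trbc2 went from 186 CPM to 157 CPM and then to 109 CPM in step 3, and was 93.3 CPM at 12 steps or more. In the control section Trbc2 ranged from 88.4 to 109 CPM over all 8 distance classes. The rIL7 level of Trbc2 thus stood above that range in the outer 2 steps, and from step 3 inward it lay within it, apart from 121 CPM at step 4 and 110 CPM at 5 to 6.

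Measured as a difference instead of a ratio, the rim of Trbc2 was similar to those of Trac and Trbc1. From 12 steps or more to the outermost step the rIL7 level was higher by 92.5 CPM (71.5 to 113) for Trbc2, 78.6 CPM (64.6 to 92.6) for Trac and 75.9 CPM (59.2 to 92.6) for Trbc1, and the intervals overlap, beside 3.40 CPM (-0.72 to 7.52) for Trdc. In the outermost step the rIL7 section exceeded the control by 92.1 CPM (68.5 to 116) for Trbc2, 79.7 CPM (65.2 to 94.2) for Trac and 98.4 CPM (81.3 to 116) for Trbc1. Further in, the beta chain genes differed. The difference between sections was 48.4 CPM (26.6 to 70.2) for Trbc2 and 83.3 CPM (68.0 to 98.6) for Trbc1 at step 2. For Trac it was 57.3 CPM (45.9 to 68.8) at that step. At step 3 Trbc2 differed by 14.5 CPM (-5.79 to 34.9) and Trbc1 by 68.5 CPM (53.5 to 83.4), and these intervals no longer overlapped. Trac differed by 33.4 CPM (23.0 to 43.8) there, and its interval overlapped that of Trbc2 and lay below that of Trbc1. At 12 steps or more rIL7 exceeded the control by 28.7 CPM (22.8 to 34.6) for Trbc1 and by 7.11 CPM (4.05 to 10.2) for Trac. For Trbc2 the difference there was -5.49 CPM (-16.5 to 5.58), and at 7 to 8 steps it was 2.25 CPM (-13.7 to 18.2). At 7 to 8 steps Trbc1 differed by 43.7 CPM (33.7 to 53.7) and Trac by 12.1 CPM (6.48 to 17.7).

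A straight line, weighted by depth, through the 16 levels of both sections by distance class, drawn after these values were seen, describes each gene by a slope and a starting level. For each CPM of Trac, Trbc2 was higher by 1.02 CPM and Trbc1 by 1.35 CPM, beside 0.74 for Cd3g, 0.43 for Cd3d, 0.36 for Cd3e, 0.22 for Cd247 and 0.07 for Trdc. At a Trac level of 0 the lines stood at 85.7 CPM for Trbc2, 20.3 CPM for Trbc1 and between 0.75 and 3.10 CPM for the other 5. The rIL7 section gave most of the range in Trac. Fitted within it alone, Trbc2 had a slope of 1.12 and a starting level of 80.7 CPM, and Trbc1 a starting level of 39.4 CPM. Within the control alone Trbc2 had a slope of -0.98 and a starting level of 103 CPM, and Trbc1 0.73 and 14.4 CPM. The starting level of Trbc2 was the highest in each of the 3 fits, while its slope in the control had the opposite sign. The classes of one section share a library and are not independent.

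**Figure D3:**
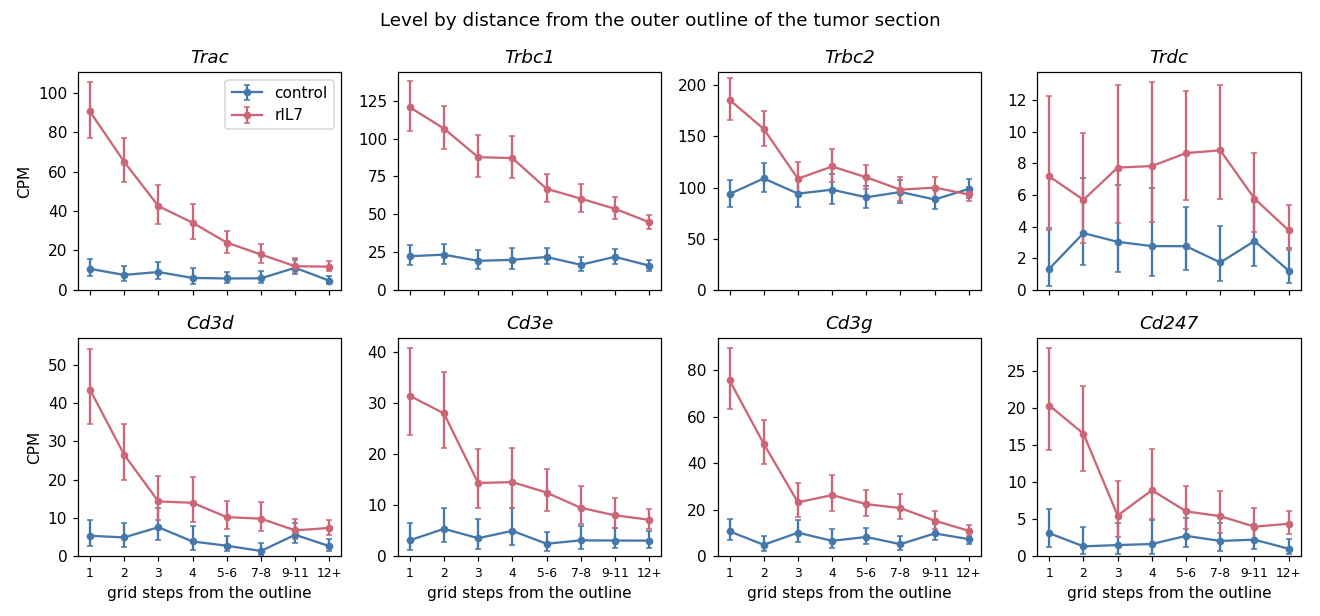
Level of each gene in CPM against grid steps from the outer outline, control in blue and rIL7 in red, with 95% counting intervals; each panel has its own vertical scale from 0. Trac and the CD3 genes are lower with each step inward over the outer 3 steps in rIL7, Trbc2 reaches the control range (88.4 to 109 CPM) in step 3, and Trdc stays between 3.77 and 8.81 CPM.

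Trdc and zeta have uses outside alpha beta T cells, so NK and gamma delta markers are given beside them. Trdc in rIL7 was 7.17 CPM in the outermost step, 8.81 CPM at 7 to 8 steps and 3.77 CPM at 12 steps or more. Ncr1, which encodes the NK receptor NKp46, was likewise level over the outer steps, at 25.4 CPM in the first, 25.1 CPM at 7 to 8 and 13.9 CPM at 12 steps or more, with an edge-to-interior ratio of 1.30 (1.03 to 1.62). The summed NK markers had a steeper course, from 286 CPM in the first step to 132 CPM at 12 steps or more and an edge ratio of 1.55 (1.45 to 1.66). The gamma chain gene Tcrg-C2 had an edge ratio of 3.28 (1.98 to 5.35), unlike Trdc. Of 8 NK markers, 7 had at least 20 UMIs, 6 were at least 2-fold higher in rIL7 (4.05% of all genes tested) and 5 had quadrants apart (9.74%), with a median log2 ratio of 1.34. Ncr1 had 180 and 510 UMIs, Klrd1 269 and 899, Nkg7 323 and 1000 and Gzma 848 and 2045, while Klra8 had 0 and 1. Klrk1, which CD8 T cells also express, had 257 and 464 and was higher at the rIL7 edge by 2.65 times. The paper counts Gzma and Nkg7 among its genes of T cell cytotoxicity, so the summed NK markers are not specific to NK cells. Of the gamma delta markers, the gamma chain constant gene Tcrg-C2 had 3 and 79 UMIs, Tcrg-C4 10 and 22 and Tcrg-C1 1 and 14. Tcrg-C3, which is not in that list, had 0 and 1. Sox13 had 63 and 41 UMIs, and Trdv4 and Il17a had 0 in both sections. The 6 Trdv genes in the files together had 0 and 3 UMIs. The part of either cell type in the Trdc level was not tested.

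Trbc2 also varied less between spots, relative to its level, than most of its partners. The variation between spots beyond counting error, as a coefficient of variation, was 0.318 for Trbc2 in the control section, against 0.584 for Trbc1, 1.17 for Cd3g and 1.30 for Trac. In rIL7 it was 0.432 for Trbc2, against 0.647, 1.03 and 1.16. The remaining genes had 0.578 to 1.47 in the control and 0.876 to 1.05 in rIL7, except that the 78 control UMIs of Cd3e varied no more than counting error allows. The median gene with at least 100 UMIs had 0.193 and 0.187, so Trbc2 varied more than a typical gene and less than the other receptor genes. Likeness to neighbouring spots is a separate measure. In the control its rho was 0.075 for Trbc2, the highest of the 8, 0.073 for Trbc1 and -0.012 for Trac. In rIL7 it was 0.070 for Trbc2, below Trac (0.182), Cd3g (0.146) and Trbc1 (0.139) and above Cd3d (0.041) and Trdc (-0.028). With every spot thinned to 5900 UMIs, 42.7% (40.5 to 44.9) of control and 47.3% (45.0 to 49.6) of rIL7 spots had a Trbc2 UMI, beside 3.65% and 14.4% for Trac and 10.7% and 30.8% for Trbc1. Unthinned, the shares were 59.7% and 71.9% for Trbc2 and 6.80% and 26.3% for Trac.

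The level of Trbc2 was much the same in spots with and without UMIs of the other 7 genes, up to 2 of them. In the control it was 95.3 CPM (90.3 to 101) in the 1465 spots without any, 97.4 CPM with 1 and 101 CPM with 2. The 66 control spots with 3 or more had 75.0 CPM (58.1 to 95.2). In rIL7 it was 102 CPM (94.2 to 111) in the 453 spots without the others, 103 and 103 CPM in spots with 1 and 2, and 131 CPM (123 to 139) in the 601 spots with 3 or more. Trac, counted against the other members without Trbc2, was higher in each class than in the one before, from 6.06 through 8.02 and 12.1 to 21.6 CPM in the control and from 14.8 through 19.4 and 27.5 to 52.3 CPM in rIL7. Trbc1 went from 18.3 to 27.4 CPM in the control and from 51.5 to 113 CPM in rIL7. The top control class held only 10 Trbc1 UMIs in 25 spots (13.1 to 50.3 CPM). For Trac it held 12 UMIs in 41 spots (11.1 to 37.7 CPM). The classes were set on unthinned UMIs, so deeper spots fall more readily into the higher ones. With spots split into 3 equal groups by depth, Trbc2 went from 108 CPM in the shallowest to 87.3 CPM in the deepest in the control. In rIL7 it went from 125 to 101 CPM. The sum of the other 7 went from 53.2 through 43.2 to 46.0 CPM in the control and from 223 through 162 to 127 CPM in rIL7. The part of depth in the courses over the classes was not tested.

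**Figure D4:**
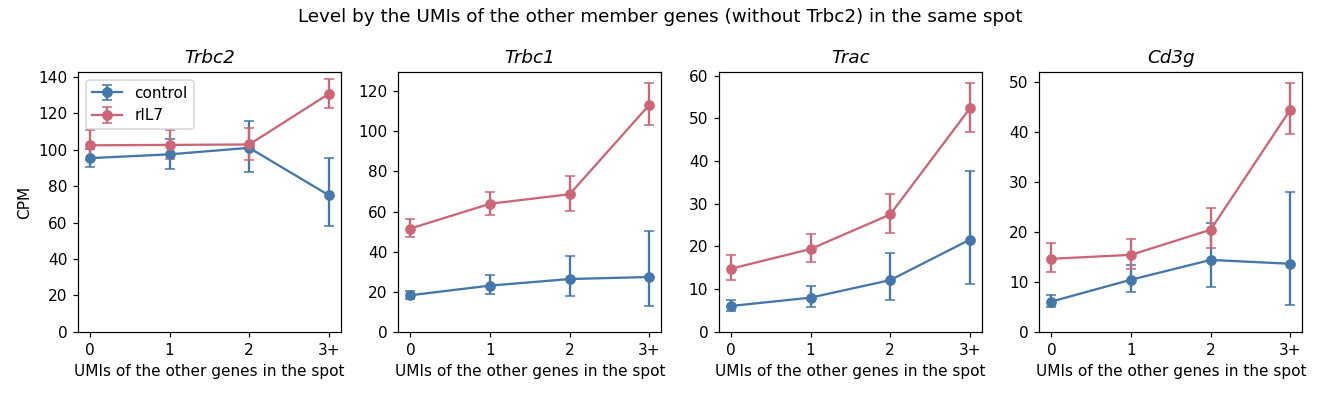
Level in CPM of Trbc2, Trbc1, Trac and Cd3g in spots grouped by the UMIs of the other member genes (the gene itself and Trbc2 left out), control in blue and rIL7 in red, with 95% counting intervals. The groups are not matched for spot depth, and a spot with 0 may still hold T cells. Trbc2 is near 100 CPM in spots with 0 to 2, and in spots with 3 or more it is at 131 CPM in rIL7 and 75.0 CPM in the control, while Trac is higher in each successive class in both sections.

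Correlations between genes over spots were low in both sections. Over the 7 pairs with Trbc2, Spearman's rho on thinned spots ran from -0.015 to 0.055 in the control (2002 spots) and from -0.012 with Cd3d to 0.107 with Trac in rIL7 (1869 spots). Among the other 7 genes, all 21 pairs were positive in rIL7, with a median of 0.071. In the control 14 of 21 were positive, with a median of 0.023. No range over redraws of the thinning is given for these pairs. For Trbc2 with the sum of the other 7, the redraws ran from -0.021 to 0.061 in the control. The signs of such low control values are thus uncertain. Most thinned spots hold 0 or 1 UMI of a gene, and all spots of a section share 1 library. How far sparse counts lower these values was not tested. Summed over blocks of neighbouring spots, rho was 0.483 for Trac with Cd3g, 0.472 for Trac with Trbc1 and 0.454 for Trac with Cd3d in rIL7. For Trbc2 it was 0.190 with Trac, 0.141 with Trbc1 and 0.318 with Cd3e, the last close to the 0.319 of Trbc1 with Cd3e. In the control blocks the pairs with Trbc2 ran from -0.062 with Cd3g to 0.173 with Cd3e, and those among the other 7 from -0.089 for Trdc with Cd3g to 0.231 for Trac with Cd3g.

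**Figure D5:**
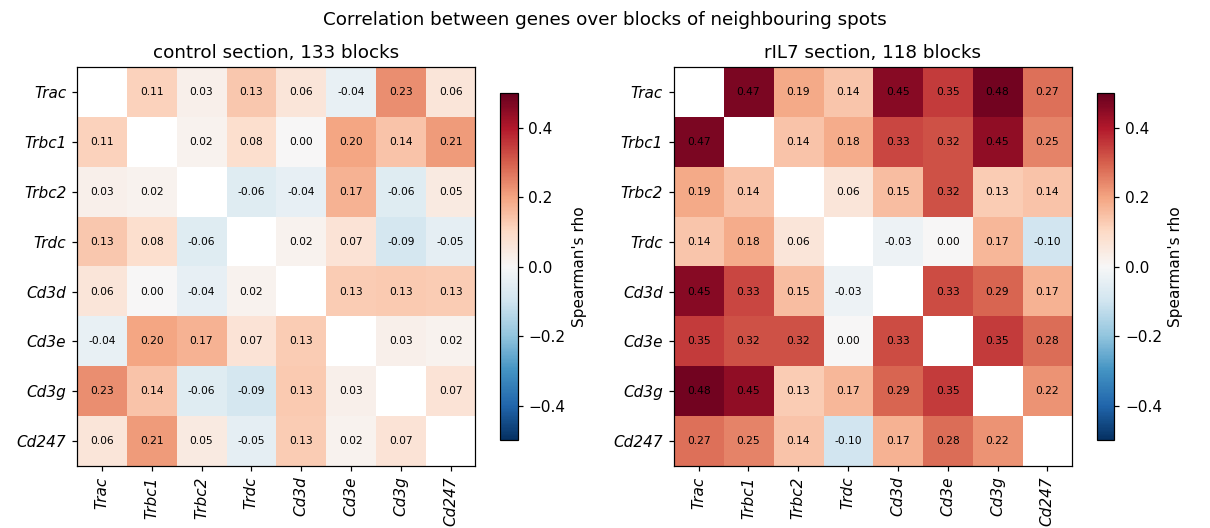
Spearman's rho between each pair of genes over blocks of neighbouring spots, 133 in the control and 118 in rIL7, on a colour scale from -0.5 to 0.5. In rIL7 Trac, Trbc1 and the CD3 genes form a block of higher values (Trac with Cd3g 0.483), and the rows of Trbc2 and Trdc are paler, except for Trbc2 with Cd3e (0.318).

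Against the lists of other cell types, Trbc2 and Trbc1 had opposite signs in the control blocks for 4 of 6 lists. Trbc2 had a rho of -0.334 with macrophage genes, -0.284 with MHC class II genes, -0.166 with fibroblast genes and -0.144 with NK genes, and Trbc1 had 0.252, 0.304, 0.208 and 0.280. Over single control spots the rho of Trbc2 was -0.044 with macrophage, -0.033 with MHC class II, -0.042 with fibroblast and 0.013 with NK genes. Of these 4, only the macrophage value stayed below 0 over the redraws of the thinning (-0.069 to -0.015). With proliferation genes Trbc2 had 0.308 and Trbc1 0.004, and with CT26 tumor genes both were negative, at -0.120 and -0.162. With control spots split into 3 equal groups by macrophage level, Trbc2 went from 103 through 99.1 to 87.6 CPM as the sum of the other 7 went from 37.9 through 43.0 to 55.6 CPM. By proliferation level Trbc2 went from 86.5 through 91.2 to 111 CPM. By spot depth it went from 108 CPM in the shallowest group to 87.3 CPM in the deepest. The groups by macrophage and proliferation level were not matched for depth. The highest macrophage group was deeper, and the highest proliferation group shallower, than the lowest. The part of depth in these courses was not tested. By level of the CT26 tumor genes Trbc2 went from 101 through 95.9 to 89.6 CPM in the control. In rIL7 it went from 129 through 99.0 to 109 CPM. The sum of the other 7 went from 55.9 through 43.8 to 40.8 CPM in the control and from 235 through 138 to 111 CPM in rIL7.

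In the rIL7 blocks Trbc2 was positive with MHC class II (0.340), macrophage (0.175) and NK genes (0.167), each below the 0.554, 0.588 and 0.576 of Trac. MHC class II and macrophage genes were themselves higher at the rIL7 edge, by 3.17 and 1.73 times, and the CT26 tumor genes lower, at 0.691 times. How far these lists account for the pattern of Trbc2 was not tested.

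The genes most like Trbc2 over single spots were named by the same measure of rho. In the control the closest of 10892 genes to Trbc2 were Ccnd1 (rho 0.087), which encodes cyclin D1, Hnrnpab, which encodes an RNA-binding protein, Crabp1, Ebna1bp2 and Csnk2b. The closest to the sum of the other 7 were Cd74 (0.159), H2-Eb1, H2-Ab1 and H2-Aa, all of the MHC class II pathway, and Gbp2b. In rIL7 the closest of 11128 genes to Trbc2 were H2-Ab1 (0.140), Bgn, Aif1, Klk1 and H2-Eb1, and to the sum of the other 7 Cd74 (0.337), Tmsb4x, H2-Eb1, Cxcl9 and AW112010. H2-Eb1 is in both rIL7 lists. All the values for Trbc2 are low, and nothing is read from their order.

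Most genes of proteins that work with the receptor were higher in the rIL7 section. Of 28 partner genes, 27 had at least 20 UMIs, 20 were at least 2-fold higher in rIL7 (4.05% of all genes tested), 0 were 2-fold lower and 19 had quadrants apart (9.74%), with a median log2 ratio of 1.55. The coreceptors Cd8a (161 and 528 UMIs, ratio 2.93), Cd8b1 (36 and 196, 4.86) and Cd4 (41 and 182, 3.96) were all higher, as were the kinases Lck (145 and 520, 3.20) and Zap70 (104 and 364, 3.12). The highest ratio was that of Themis, a regulator of thymocyte signalling, at 6.96 (2.74 to 22.6) from only 5 and 39 UMIs. Of the 4 partners with the most UMIs, the phosphatase gene Ptpn22 had 407 and 1174 (2.57), the surface protein gene Thy1 929 and 1460 (1.40), the adaptor gene Lcp2 518 and 793 (1.37) and the kinase gene Fyn 223 and 480 (1.92). The 7 tested partners below 2-fold also included Tespa1 (1.49), Ubash3a (1.26), Rhoh (1.15) and Grap2 (0.904), an adaptor gene with 75 and 76 UMIs. Within the rIL7 section Cd4 had the steepest edge of the genes examined singly, 30.3 CPM against 2.68 CPM inside (11.3, 8.20 to 15.8), beside 2.28 for Cd8a and 2.65 for Lck.

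The chromosomal surroundings of Trbc2 carried few molecules. Of 12 neighbouring genes in the files, 1 had at least 20 UMIs over both sections: Prss2, which encodes a trypsinogen, had 130 and 115 UMIs, 5.66 and 4.47 CPM, a ratio of 0.789 (0.609 to 1.02). Ephb6 had 6 and 11 UMIs, Trpv6 2 and 0, Kel 0 and 1, and Trbv31, the variable segment beyond Trbc2, 0 in both. The variable and joining segments were almost unseen, as the 3′ end of a receptor transcript lies in its constant region: 35 Trbv genes had 1 and 3 UMIs together and 128 Trav genes 1 and 4. These counts say nothing of which rearranged chains the Trbc2 molecules belonged to. Trbc1 and Trbc2 are close copies counted against a reference from another mouse strain, and how reads were divided between them was not tested, so the split between the 2 is uncertain in both sections.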

How the data were processed

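Visium data were analysed for 1 control and 1 rIL7 section. Using SpaceRanger 1.1.0 and its mm10 (GRCm38) reference, the authors assigned reads to spots and genes, and deposited raw UMI counts for each. Spot barcodes, gene names and array positions (deposited by the authors, unit other than a measurement) were used as given, and image scale factors were not used.

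Spots with under 10% mitochondrial UMIs and more than 200 genes were kept, as in the study's methods, which removed 2 control spots and 1 rIL7 spot. UMIs were summed and divided by the section total (CPM). With 1 section per group no test was run. Intervals are 95% exact Poisson (levels), exact binomial (ratios and shares) or normal approximations for differences of levels. They cover counting error only. The ratio intervals were tested only on section sums simulated with counting error alone, which is what the intervals assume. That check says nothing of spread between spots or animals. Edge and thinning rules are given with the results. Quadrants split the kept spots of a section at their median array row and median array column. Spearman's rho used spots thinned to 5900 UMIs (217 control and 81 rIL7 spots were shallower and left out), with the thinning redrawn 20 times, and blocks of 4 array rows by 8 array columns. The sections shared 1702 spot barcodes, so a barcode alone does not name a section. Whether both lay on the same slide is not stated. Python 3.11.15, numpy 2.4.6, scipy 1.17.1 and pandas 2.3.3 were used, and edgeR 4.0.16 (TMM) and DESeq2 1.42.0 (median-of-ratios) only for scaling.

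The member genes and all lists were chosen with earlier results of these data known. Named genes were the 8 members, from each list the 4 with the most UMIs and the extremes, and the 5 genes most like Trbc2 or the other 7 by rho among genes with at least 100 UMIs. Cd4, Cd8a, Cd8b1, Lck, Zap70, Grap2, Trbv31, Ncr1, Klra8, Tespa1, Ubash3a, Rhoh and the gamma delta markers were named beyond that rule for their roles or position. The line on Trac and the splits into 3 groups by depth, macrophage, proliferation and fibroblast level were added after the data were seen. The sequences of Trbc1 and Trbc2 were not analysed here.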

Additional observations from a re-analysis of the deposited data

How the results depend on the processing

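No paired analysis was possible because each group has 1 section, and leaving out a replicate was not possible for the same reason. The rIL7 over control ratios and the rIL7 edge ratios kept their direction under the alternatives run. In the control section 2 values near 0 changed sign within their intervals: the log2 edge ratio of Trbc2 was -0.03 with an edge of 1 grid step (0.10 with 2), and its rho with the others was -0.0013 with 3000 UMIs per spot (0.0180 with 5900). Without the edge, log2 ratios of rIL7 over control were 0.10 for Trbc2 (0.22 with all spots), 1.47 for the sum of the other 7 (1.77), 1.44 for Trac, 1.31 for Cd3d and 1.11 for Cd3g. With an edge of 3 grid steps the rIL7 log2 edge ratio was 0.59 for Trbc2 (0.75 with 2 steps) and 1.31 for the other 7 (1.44). With spots weighted equally the control edge ratio of the other 7 was 0.53 (0.26). The rIL7 rho of Trbc2 with the others was 0.0452 in interior spots and 0.231 over blocks (0.101 over spots). Some spots, with all their neighbours, had no UMI of the other 7 genes. There Trbc2 was at 82.8 CPM in the control (71.1 to 95.8, 256 spots, 180 UMIs) against 95.3. In rIL7 it was at 130 CPM from only 4 spots and 2 UMIs (15.8 to 471) against 102. Other filters, TMM or median-of-ratios scaling (a shift of 0.01 each), totals without abundant gene classes and thinning to 3000 UMIs moved these values by less than their intervals. Depth limits the control values of Cd247, Trdc, Cd3e and Cd3d most, at under 100 UMIs each.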
